A study of Mus musculus with 26 samples.

Results

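Transcripts of 8 transcription factors that carry interferon signals (Stat2, Irf9, Irf7, Irf3, Irf5, Irf1, Irf2 and Irf8) were followed in 26 RNA-seq libraries of the mouse left ventricle. They were taken by gene symbol from a deposited table of read counts for 15249 genes, and all 8 were in it. The series crosses overexpression of Mst-1, the Hippo pathway kinase encoded by Stk4, with knockout of galectin-3, the carbohydrate-binding lectin encoded by Lgals3. The design text takes the Mst-1 mouse to model dilated cardiomyopathy, and sets the knockout against controls with and without the transgene. There were 6 wild-type libraries (wt), 7 labelled Mst-1 overexpressing (MstTg), 8 labelled Gal-3 knock out (Gal3Ko) and 5 labelled with both (Mst1Gal3), all from C57BL6 mice under standard housing with no treatment. The promoter that drives the transgene, the form of the knockout allele, and the age and sex of the mice are not in the labels. The labels do not say that each library came from a separate animal, so p-values measure only the spread between these libraries, which may be technical.

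Interferon bound to its receptor activates Janus kinases, which phosphorylate STAT proteins. STAT2 and IRF9 are subunits of the complex ISGF3, which switches on antiviral genes through interferon-stimulated response elements (ISRE), while interferon-gamma acts through gamma-activated sites (GAS). IRF3, IRF5 and IRF7 act upstream: sensors of nucleic acids and Toll-like receptors activate them to switch on interferon genes, and IRF7, itself induced by interferon, amplifies the loop. IRF1 drives antigen presentation and guanylate-binding genes, IRF2 competes with it for the same sites, and IRF8 is a lineage factor of monocytes, macrophages and dendritic cells.

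The promoters of Stat2, Irf9, Irf7 and Irf1 are shown because the transcripts of the first 3 were high in the same group, with Irf1 for contrast. Each line holds the 250 bases before a RefSeq transcript start (build GRCm38.p6), read along the gene's strand. Capitals mark a match to the ISRE core GAAANNGAAA or the GAS core TTCNNNGAA on either strand.
Stat2 (chr10:128270248-128270497, plus strand): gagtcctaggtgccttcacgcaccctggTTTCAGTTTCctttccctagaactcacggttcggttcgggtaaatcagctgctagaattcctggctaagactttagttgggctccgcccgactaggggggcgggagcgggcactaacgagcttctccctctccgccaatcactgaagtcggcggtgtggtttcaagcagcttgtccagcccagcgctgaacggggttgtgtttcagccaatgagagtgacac
Irf9 (chr14:55603735-55603984, plus strand): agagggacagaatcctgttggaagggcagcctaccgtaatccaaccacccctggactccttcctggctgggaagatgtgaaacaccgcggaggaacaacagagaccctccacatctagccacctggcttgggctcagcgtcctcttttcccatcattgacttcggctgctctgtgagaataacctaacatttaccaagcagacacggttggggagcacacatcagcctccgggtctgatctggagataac
Irf7 (chr7:141266425-141266674, minus strand): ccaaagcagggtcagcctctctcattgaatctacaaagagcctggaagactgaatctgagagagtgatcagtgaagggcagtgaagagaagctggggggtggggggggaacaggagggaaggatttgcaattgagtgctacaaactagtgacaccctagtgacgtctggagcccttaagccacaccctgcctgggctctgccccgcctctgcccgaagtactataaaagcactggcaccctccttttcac
Irf1 (chr11:53769764-53770013, plus strand): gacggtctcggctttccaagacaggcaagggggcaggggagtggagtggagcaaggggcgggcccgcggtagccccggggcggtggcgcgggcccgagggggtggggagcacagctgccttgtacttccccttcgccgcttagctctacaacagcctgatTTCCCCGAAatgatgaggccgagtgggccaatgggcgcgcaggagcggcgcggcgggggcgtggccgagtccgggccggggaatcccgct
The Stat2 window held an ISRE core match, TTTCAGTTTC on the strand shown, which starts 222 bases before the transcript start. The Irf1 window shown held a GAS core match, TTCCCCGAA, 90 bases before the start, and a second Irf1 window held neither core. Neither core was in the Irf7 window or in either of the Irf9 windows, which says only that these letters are absent from these bases. Matches were not limited to factors that rose: the Irf2 window held an ISRE core starting 241 bases before the start and a GAS core at 224. For Irf8, which rose, 1 of 2 windows held 2 GAS cores. The windows of Irf3 and Irf5 held neither. Of 32851 promoter windows of this length, 2.98% held the ISRE core and 7.02% the GAS core. All 8 factors had a window, 11 windows in all.

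Library totals ranged from 18580405 to 32663735 counts, and 1 count in the smallest library was worth 0.0538 CPM (library-scaled counts, the unit of level below). Stk4 stood at 454 to 692 counts in wt and at 22011 to 31877 in MstTg, and at 388 to 718 in Gal3Ko against 19919 to 28364 in Mst1Gal3. Lgals3 was 0.878 to 2.41 CPM in wt and 1.47 to 2.74 CPM in the libraries labelled Gal3Ko, so its count does not tell these groups apart. It was 50.9 to 60.0 CPM in MstTg and 2.54 to 5.43 CPM in Mst1Gal3. Mitochondrial transcripts took 14.4 to 23.3% of counts in the libraries with the transgene and 26.8 to 38.3% in the others. In 6 libraries of all 4 groups the atrial transcripts Myl7, Myl4 and Sln together passed 30 CPM (wt 5, MstTg 5, Gal3Ko 4, 5 and 8, and Mst1Gal3 3). All 9 ventricular cardiomyocyte markers were measured in every library, with sums from 35768 to 61545 CPM.

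In MstTg hearts 5 of the 8 factors rose above wt: Irf7, Irf5, Irf9, Stat2 and Irf8. Irf7, Irf9 and Stat2 stood at wt levels in Mst1Gal3 hearts, which carry the same transgene together with the knockout label, whereas Irf5 and Irf8 stayed high there. Irf1 was lowest in Mst1Gal3, and Irf2 and Irf3 passed the test in none of the 5 comparisons. A call means an adjusted p below 0.05 in edgeR's quasi-likelihood test, with Benjamini-Hochberg adjustment over all 15249 genes. The MstTg against wt comparison called 55.0% of all genes, 28.2% as higher and 26.8% as lower, so a count of 5 called of 8 is near the share called in general. In Mst1Gal3 against MstTg, 4 of the 8 fell (Irf7, Irf9, Stat2 and Irf1) and 0 rose, where 2.35% of all genes fell. Beside that 0, none of the 8 was higher at an unadjusted p below 0.05, with DESeq2 or with limma-voom. In Mst1Gal3 against Gal3Ko, 2 rose (Irf5 and Irf8) and 1 fell (Irf1), where 52.5% of all genes were called, 26.9% as higher and 25.6% as lower. In Gal3Ko against wt, 0 of 8 were called by edgeR, DESeq2 or limma-voom, and 0 at an unadjusted p below 0.05, where 0.354% of all genes were called, 0.177% in each direction.

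The interaction asks whether the step between the libraries with and without the knockout label differed with the transgene and without it. It was called, as lower, for 3 of 8 factors (Irf7, Irf9 and Stat2), where 0.656% of all genes were called and 0.367% as lower. The estimates of the other 5 ran from -0.21 (Irf1) to 0.12 (Irf3), none of them called. The median log2 fold change of the 8 factors was 0.53 for MstTg against wt, -0.21 for Mst1Gal3 against MstTg and -0.15 for the interaction. Over all genes these medians were 0.02, 0.02 and 0.01. The MstTg libraries enter all 3 of these comparisons, so their values are not independent of each other.

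**Figure D1:**
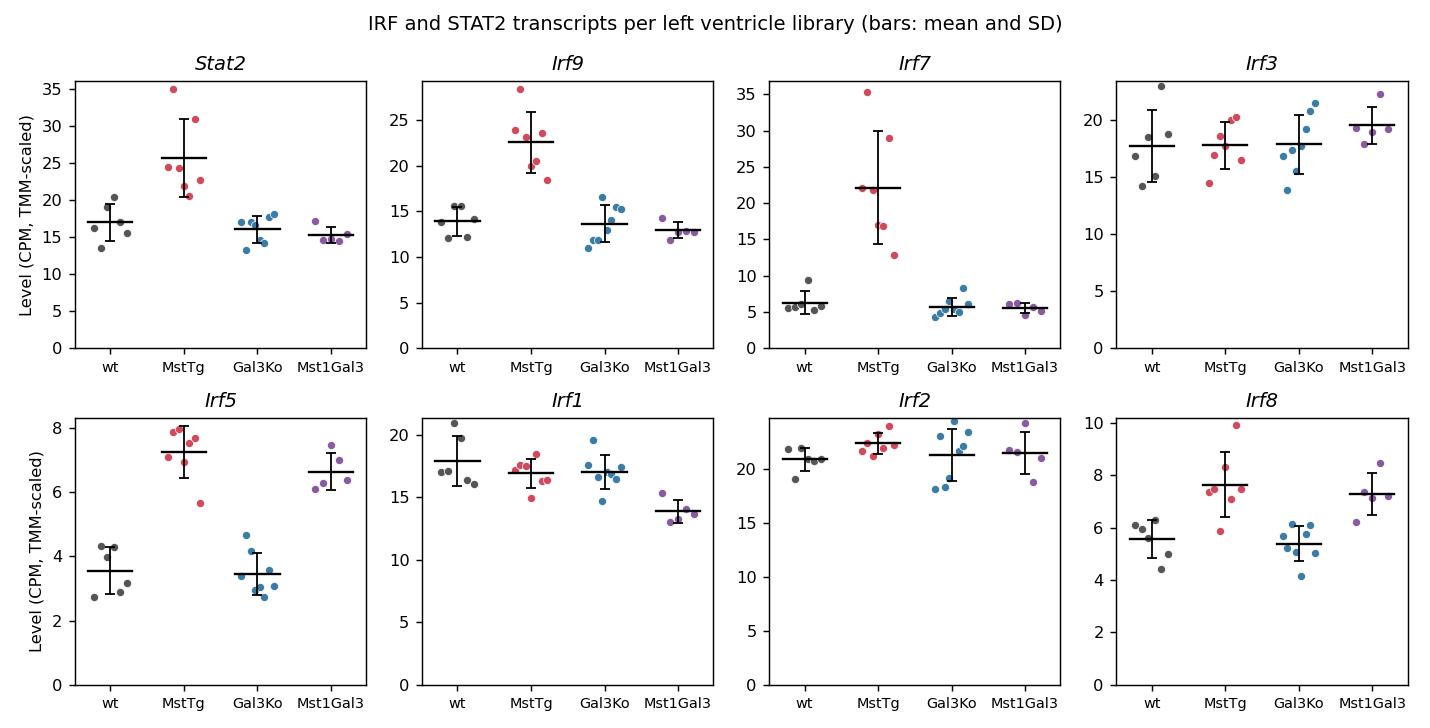
Level of each factor in every library (y axis, CPM on TMM-scaled library sizes; x axis, the 4 groups), with a horizontal bar for the group mean and whiskers for the SD. Irf7, Irf9 and Stat2 are higher in every MstTg library than in the other groups, Irf5 is high in both transgenic groups, and Irf2 and Irf3 overlap in all groups.

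Stat2 encodes a STAT that joins IRF9 in ISGF3 (ENSMUSG00000040033, GRCm38 chr10:128270559-128292849, plus strand). Its level in the wt libraries was 13.5 CPM at the lowest, 16.7 at the median and 20.4 at the highest. In MstTg it was 20.6, 24.4 and 35.0 CPM, so the lowest MstTg library lay just above the highest wt library. Gal3Ko libraries spanned 13.2 to 18.1 CPM with a median of 16.8. The Mst1Gal3 libraries held 17.2, 14.7, 14.7, 14.4 and 15.5 CPM, inside the wt range and below all of MstTg. The share of all genes whose groups lie apart was not counted, here or for the factors below. Stat2 was 1.51-fold higher in MstTg than in wt (log2 0.60 ± 0.11 SE, edgeR adjusted p = 1.8e-05) and lower by -0.75 ± 0.11 on the log2 scale in Mst1Gal3 than in MstTg (edgeR adjusted p = 6.76e-05). Its interaction was -0.67 ± 0.15 (edgeR adjusted p = 0.0326). That last call did not hold when any of 10 libraries was left out in turn (adjusted p 0.0515 to 0.0751; wt 1, 2 and 6, MstTg 6, Gal3Ko 1, 7 and 8, and Mst1Gal3 2, 4 and 5), nor without the 6 libraries with atrial transcripts (0.0657) or without scaling factors (0.0596).

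Irf9 encodes the DNA-binding subunit of ISGF3 (ENSMUSG00000002325, GRCm38 chr14:55603571-55610030, plus strand). It measured 12.1, 14.01 and 15.6 CPM at the lowest, median and highest wt library, and 18.4, 23.1 and 28.4 CPM in MstTg. Every MstTg library was above every wt library. Gal3Ko ran from 10.98 to 16.6 CPM with a median of 13.5, and Mst1Gal3 held 14.3, 11.9, 12.8, 12.9 and 12.7 CPM. These 3 groups overlapped and all lay below MstTg. The rise over wt was 1.62-fold (log2 0.70 ± 0.10, edgeR adjusted p = 2.42e-07), the step from MstTg to Mst1Gal3 was -0.80 ± 0.10 (edgeR adjusted p = 5.39e-06), and the interaction was -0.78 ± 0.14 (edgeR adjusted p = 0.00844). The interaction of Irf9 remained called with each of the 26 libraries left out in turn (adjusted p 0.0026 to 0.0181) and without the atrial ones (-0.67, adjusted p 0.0365). Of its annotated exon bases 123 (2.28%) are shared with Rnf31, a ubiquitin ligase gene on the same strand.

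Irf7 had the widest range of the 8 (ENSMUSG00000025498, GRCm38 chr7:141262706-141266481, minus strand). It is the interferon-induced factor that amplifies interferon production. In wt it was 5.30 CPM at the lowest, 5.73 at the median and 9.39 at the highest, and in MstTg 12.8, 21.8 and 35.3 CPM. The MstTg libraries all lay above the rest but differed by more among themselves than any other group, with a coefficient of variation of 35.2% against 12.4 to 24.5% elsewhere. Replicate 2 of MstTg was the highest (35.3 CPM), followed by replicate 6 (29.1 CPM), and replicate 7 was the lowest (12.8 CPM). Gal3Ko spanned 4.35 to 8.31 CPM with a median of 5.39, and Mst1Gal3 held 6.10, 6.26, 4.62, 5.73 and 5.11 CPM. Irf7 in MstTg was 3.52-fold higher than in wt (log2 1.81, 95% interval 1.41 to 2.22, edgeR adjusted p = 8.34e-09). From MstTg to Mst1Gal3 it fell by 1.99 on the log2 scale (interval -2.42 to -1.56, edgeR adjusted p = 9e-07), and its interaction was -1.87 (interval -2.45 to -1.28, edgeR adjusted p = 0.00224). Without MstTg replicate 2 these values were 1.66, -1.84 and -1.71, all still called. Between Mst1Gal3 and Gal3Ko, where the transgene differs and the knockout label does not, Irf7 differed by -0.05 (interval -0.48 to 0.38, edgeR adjusted p = 0.859).

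The same library, MstTg replicate 2, was the highest of all 26 for Irf7, Irf9 and Stat2. Over the libraries, deviations of log2 CPM from the group means had Pearson r = 0.782 between Irf7 and Irf9, 0.727 between Irf7 and Stat2 and 0.641 between Irf9 and Stat2 (n = 26 libraries, which share depth and dissection for all genes). Irf3 paired with none of them in this way (r = 0.04, 0.12 and 0.20 with Irf7, Irf9 and Stat2).

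Irf3, the factor that is present before stimulation and activated by phosphorylation, overlapped in all 4 groups (ENSMUSG00000003184, GRCm38 chr7:44997648-45002848, plus strand). Its lowest, median and highest levels were 14.2, 17.7 and 22.9 CPM in wt, 14.5, 17.8 and 20.3 in MstTg and 13.8, 17.5 and 21.5 in Gal3Ko. Mst1Gal3 held 19.3, 17.9, 18.9, 22.3 and 19.2 CPM. The difference between MstTg and wt was 0.00 on the log2 scale, with a 95% interval of -0.20 to 0.21, and between Mst1Gal3 and MstTg 0.13 (-0.08 to 0.35). A change of the size seen in Irf7 lies outside these intervals.

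Irf5 rose with the transgene whether or not the knockout label was present (ENSMUSG00000029771, GRCm38 chr6:29526625-29541871, plus strand). It is a factor of Toll-like receptor signalling, known for its role in inflammatory macrophages. It measured 2.73, 3.57 and 4.34 CPM at the lowest, median and highest wt library and 2.74, 3.25 and 4.67 in Gal3Ko. MstTg gave 5.66, 7.54 and 7.96 CPM, and Mst1Gal3 6.10, 6.30, 7.46, 6.997 and 6.37 CPM. All transgenic libraries were above all others. Irf5 rose 2.04-fold in MstTg over wt (log2 1.03 ± 0.12, edgeR adjusted p = 1.05e-08) and 1.94-fold in Mst1Gal3 over Gal3Ko (log2 0.95 ± 0.12, edgeR adjusted p = 5.53e-08), 2 comparisons that share no library. The interaction was -0.08 with an interval of -0.43 to 0.28, above the intervals of Irf7 and of Irf9 (-1.06 to -0.49). It overlapped the interval of Stat2 (-0.99 to -0.36). Of its annotated exon bases 14.1% overlap Tnpo3 on the other strand, and no source used here gives the strand setting of the counting.

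Irf8 followed Irf5 with smaller steps (ENSMUSG00000041515, GRCm38 chr8:120736358-120756694, plus strand). It stood at 4.43, 5.79 and 6.29 CPM in wt and 4.16, 5.44 and 6.13 in Gal3Ko, and at 5.87, 7.46 and 9.90 CPM in MstTg. The 5 Mst1Gal3 libraries held 6.22, 7.37, 7.12, 8.47 and 7.19 CPM, all above Gal3Ko, while wt and MstTg overlapped. The rise was 1.37-fold in MstTg over wt (log2 0.46 ± 0.11, edgeR adjusted p = 0.000495) and 1.35-fold in Mst1Gal3 over Gal3Ko (log2 0.43 ± 0.11, edgeR adjusted p = 0.00119). The interaction was -0.03 (interval -0.34 to 0.28).

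Irf5 and Irf8 are genes of myeloid cells in many tissues, so markers of those cells are given beside them. All 16 macrophage markers were measured and none was at 0 in any library. In MstTg against wt 3 of them rose (Cd68 by 1.11, Cx3cr1 by 0.74 and Mertk by 0.24 on the log2 scale). Cd163 and Timd4, genes of resident macrophages, fell there by 0.85 and 0.89. These calls are 31.2% of the list, where 55.0% of all genes were called. In Mst1Gal3 against Gal3Ko Cd68 (1.47) and Cx3cr1 (1.08) rose, and Cd163 (-0.54) and Timd4 (-0.81) fell. That is 25.0% of the list, where 52.5% of all genes were called. Summed over the list the level was 259 to 475 CPM in wt, 324 to 390 in MstTg, 276 to 403 in Gal3Ko and 334 to 411 in Mst1Gal3, with overlap between all groups. Fibroblast markers moved with the transgene in full: 7 of 7 rose in both contrasts, and their sum was 646 to 852 CPM in wt and 658 to 777 in Gal3Ko but 2447 to 2970 in MstTg and 1953 to 2462 in Mst1Gal3. In the same 2 contrasts 7 of 8 endothelial markers fell. In MstTg against wt 7 of 9 ventricular cardiomyocyte markers fell and 1 rose, and in Mst1Gal3 against Gal3Ko 6 fell and 1 rose. Over all genes 28.2% rose and 26.8% fell in MstTg against wt, and 26.9% and 25.6% in Mst1Gal3 against Gal3Ko. The part of these cell types in the rise of Irf5 and Irf8 was not tested. In bulk tissue, fewer cells of a type and less RNA per cell cannot be told apart.

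For Irf7, Irf9 and Stat2 the comparison of Mst1Gal3 with MstTg holds the transgene constant. There 0 of 16 macrophage markers were called by edgeR, DESeq2 or limma-voom (2 were lower at an unadjusted p below 0.05). Over all genes this comparison called 4.89%, so a count of 0 in a list this short says little about those cells. The fibroblast sums overlapped only at their ends, with 1953 to 2462 CPM in Mst1Gal3 (median 2178) and 2447 to 2970 in MstTg (median 2639). Of 7 fibroblast markers edgeR called 1, Postn (-0.76 ± 0.16), and DESeq2 called 2, both lower. At an unadjusted p below 0.05, 3 fibroblast markers were lower and 2 higher. A few markers of other cell types were called. In the ventricular cardiomyocyte list 2 of 9 rose (Myh6 by 0.41 ± 0.09 and Ryr2 by 0.22 ± 0.06). Myh6 lies on chromosome 14 within 20 Mb of Lgals3, a region counted below. It was at 0.32 ± 0.08 in Gal3Ko against wt (edgeR adjusted p = 0.0955). Of the atrial markers 1 of 5 rose (Stard10 by 0.71 ± 0.10), and 1 of 8 endothelial markers fell (Erg, -0.38 ± 0.08). The part of these cell types in the falls of Irf7, Irf9 and Stat2 was not tested. Markers of dendritic cells and monocytes (3 of 11 measured), lymphocytes (1 of 12) and neutrophils (1 of 6) were too few to describe those cells.

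Irf1, the interferon-gamma-induced activator, was lowest in Mst1Gal3 (ENSMUSG00000018899, GRCm38 chr11:53770014-53778374, plus strand). Its lowest, median and highest levels were 16.1, 17.1 and 21.0 CPM in wt, 14.9, 17.2 and 18.4 in MstTg and 14.7, 16.9 and 19.6 in Gal3Ko. Mst1Gal3 held 15.4, 13.1, 13.3, 14.04 and 13.6 CPM, all below the lowest wt library, with replicate 1 inside the range of MstTg and Gal3Ko. The level was 1.22-fold lower than in MstTg (log2 -0.28 ± 0.07, edgeR adjusted p = 0.0164) and 1.22-fold lower than in Gal3Ko (log2 -0.29 ± 0.07, edgeR adjusted p = 0.000872). The first call was lost without Mst1Gal3 replicate 2 (adjusted p 0.0551) and without the 6 libraries with atrial transcripts (0.0636), and the second without scaling factors (log2 -0.06, adjusted p 0.552). The interaction of Irf1 was not called (-0.21 ± 0.10, edgeR adjusted p = 0.38).

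Irf2, the factor that competes with IRF1, ranged from 18.1 to 24.4 CPM over the 26 libraries (ENSMUSG00000031627, GRCm38 chr8:46739732-46847458, plus strand). Its medians were 20.9 CPM in wt, 22.2 in MstTg, 21.9 in Gal3Ko and 21.5 in Mst1Gal3. The group ranges overlapped throughout, and the 95% interval of MstTg against wt was -0.04 to 0.24 on the log2 scale.

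Per kilobase of annotated exon, the place of Irf7 among the factors differed between groups. In wt the means were 5.15 ± 0.91 CPM per kb (SD, n = 6) for Irf3, 4.497 ± 0.50 for Irf1, 2.87 ± 0.42 for Stat2, 2.83 ± 0.14 for Irf2, 2.58 ± 0.29 for Irf9, 1.66 ± 0.41 for Irf7, 1.23 ± 0.25 for Irf5 and 0.789 ± 0.10 for Irf8. Neighbours whose mean ± SD overlapped were Irf3 and Irf1, then Stat2, Irf2 and Irf9, then Irf7 and Irf5. In MstTg Irf7 had the highest mean, 5.86 ± 2.1 CPM per kb (n = 7), and its SD covered Irf3 (5.16), Stat2 (4.34), Irf1 (4.25) and Irf9 (4.19). In Mst1Gal3 Irf7 was at 1.47 ± 0.18 (n = 5), above Irf8 (1.03) and below the other 6 factors, and Irf3 (5.67) and Irf1 (3.49) were highest, as in wt. Exon length here is the union over all annotated transcripts, which understates genes with long minor isoforms.

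**Figure D2:**
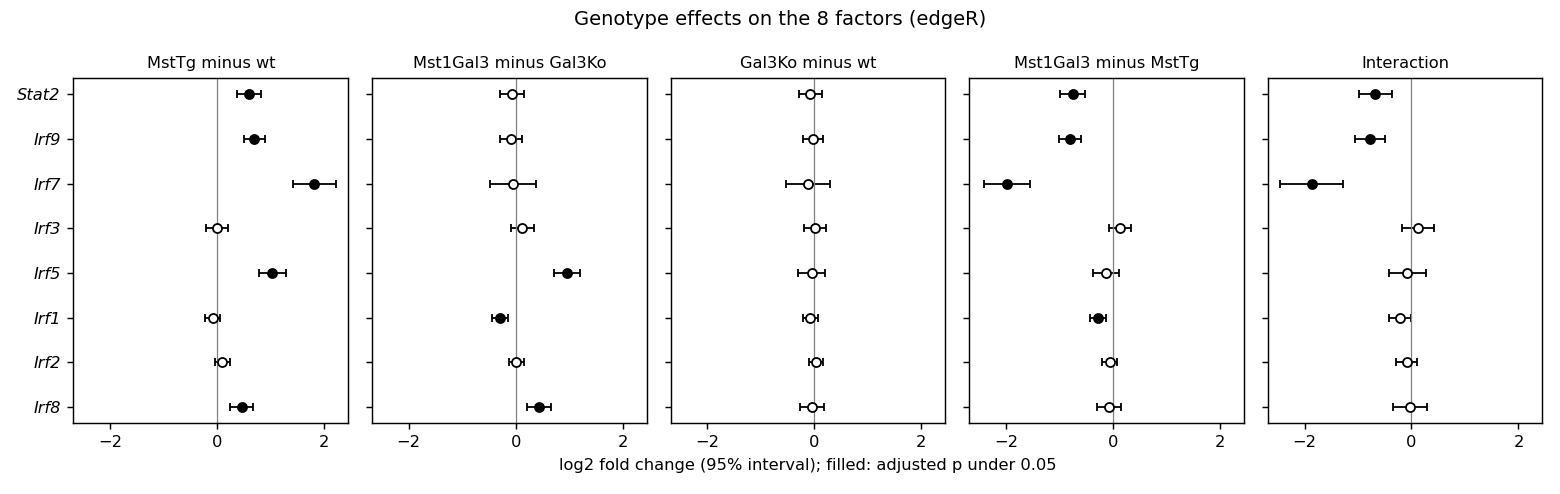
Log2 fold change of each factor in the 4 comparisons and the interaction (x axis; points with 95% intervals, filled where the adjusted p is below 0.05). Irf7, Irf9 and Stat2 are filled in the first, the fourth and the last panel, and Irf5 and Irf8 in the first and the second.

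Genes around the factors were counted from lists of the interferon pathway, of which 122 of 137 genes were measured. None of the 10 listed interferon ligand genes was found by symbol among the 15249 genes of the table, so their levels could not be read. The lowest mean count of any gene in that table was 10. In MstTg against wt 61 of the 122 rose and 16 fell, with a median log2 fold change of 0.21 against 0.02 over all genes. That is 63.1% called, where 55.0% of all genes were. In Mst1Gal3 against MstTg 58 fell and 0 rose (1 was higher at an unadjusted p below 0.05, 0 by DESeq2 or limma-voom), with a median of -0.39. That is 47.5% called, where 4.89% of all genes were. In Gal3Ko against wt 1 was called, Epsti1, an interferon-inducible gene on chromosome 14, at -1.09 ± 0.20 (edgeR adjusted p = 0.0054). These comparisons share the MstTg or the wt libraries.

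ISRE-type targets, the genes that ISGF3 switches on, carried most of these calls. Of 42 measured, 35 rose in MstTg over wt (median 0.72) and 35 fell from MstTg to Mst1Gal3 (median -0.90), both with the same MstTg libraries. Each is 83.3% of the list, where 28.2% of all genes rose in the first and 2.35% fell in the second. Among those with the smallest p were Oasl2, an oligoadenylate synthetase-like gene (1.48 ± 0.15 and -1.20 ± 0.15), and Ifit3, an antiviral gene that binds the IFIT1 complex (1.79 ± 0.20 and -1.74 ± 0.21). Ifit1, which binds uncapped viral RNA, was at -1.85 ± 0.21 in Mst1Gal3 against MstTg, and Lgals9, another galectin, at -0.73 ± 0.09. In Mst1Gal3 against Gal3Ko the list split into 6 higher and 6 lower with a median of -0.03, 28.6% called where 52.5% of all genes were. Trim25, a ubiquitin ligase that activates RIG-I (-0.42 ± 0.09), and Rsad2, the antiviral enzyme viperin (-0.74 ± 0.17), were among the lower.

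The transgene's effect in these 2 comparisons without a common library can be set side by side for each gene. Of the 42 ISRE-type targets 27 were higher in MstTg over wt and not called in Mst1Gal3 over Gal3Ko, 5 were higher in both and 3 were higher in the first and lower in the second. The 5 were Ifit2, Oasl2, Ifi27l2a, Ifi35 and Uba7, and the 3 were Cmpk2, Parp14 and Sp100, all named after their values were seen. Over all 15249 genes the counts in the same order were 866, 3425 and 11. Of all genes the interaction called 0.367% as lower and 0.289% as higher. The test of the difference itself, the interaction, called 15 of 42 lower and 0 higher (0 also at an unadjusted p below 0.05, where 35 were lower). It called 20 lower with DESeq2, 9 with limma-voom and 9 without the 6 libraries with atrial transcripts, so the count moves by more than 1.5 times with the tool. Ifit1 (-1.67 ± 0.30, edgeR adjusted p = 0.0084), Cmpk2, a mitochondrial nucleotide kinase (-0.98 ± 0.19, 0.010), and Rtp4, a receptor chaperone (-1.03 ± 0.20, 0.012), had the smallest p.

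**Figure D3:**
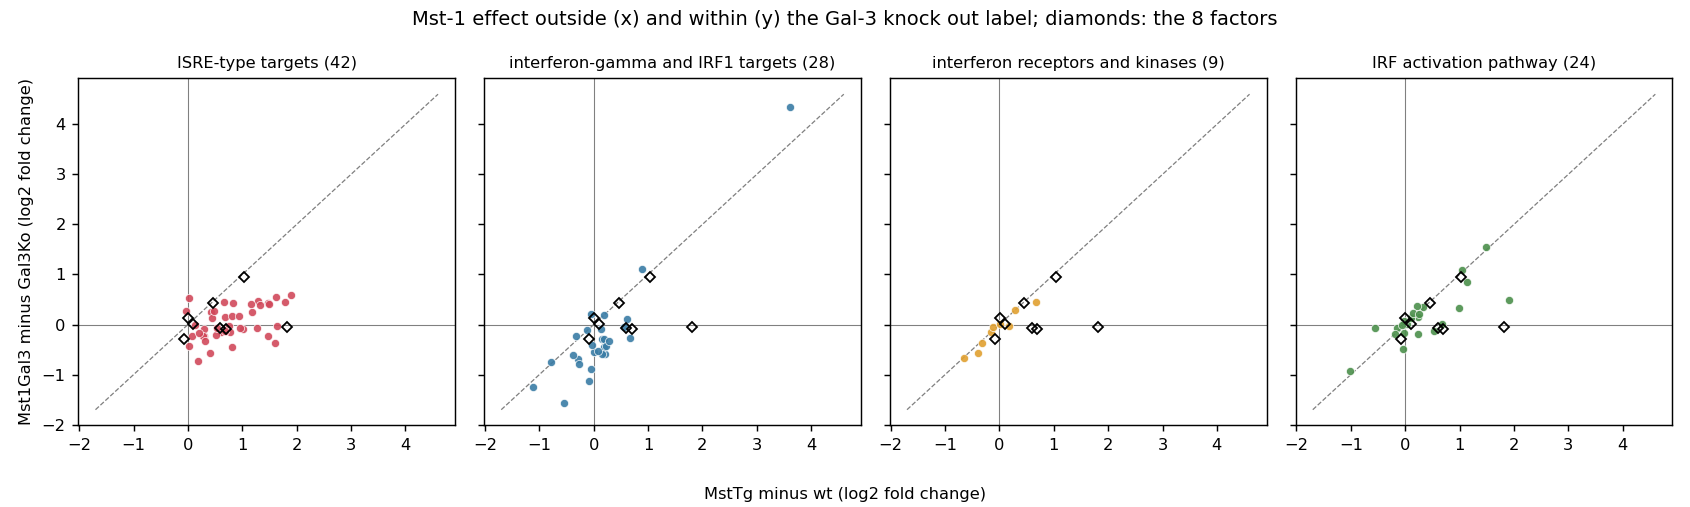
Log2 fold change with the transgene in MstTg against wt (x axis) and in Mst1Gal3 against Gal3Ko (y axis) for 4 pathway lists, 1 point per gene, with the 8 factors as diamonds in each panel and equal effects on the dashed line. ISRE-type targets spread along the x axis near 0 on the y axis, while receptors and kinases lie along the dashed line.

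Of 28 measured targets of interferon-gamma and IRF1, 7 rose and 5 fell in MstTg over wt (median 0.11). These are 42.9% of the list, where 55.0% of all genes were called. From MstTg to Mst1Gal3 16 fell and 0 rose (median -0.68), 57.1% where 4.89% of all genes were called. Beside that 0, none was higher at an unadjusted p below 0.05 or with either other tool. In Mst1Gal3 against Gal3Ko 17 fell and 3 rose (median -0.42), 71.4% where 52.5% of all genes were called. Gbp3, Gbp7 and Gbp9, guanylate-binding GTPases of host defence, were at -1.20 ± 0.17, -0.79 ± 0.12 and -0.77 ± 0.12 in Mst1Gal3 against MstTg, and Tap1, the peptide transporter of antigen presentation, at -0.67 ± 0.12. Against Gal3Ko, Cxcl9, a T cell chemokine, was at -1.57 ± 0.19. The chemokine Cxcl10 went the other way, by 3.60 ± 0.33 in MstTg over wt and 4.34 ± 0.32 in Mst1Gal3 over Gal3Ko, and Psmb10, an immunoproteasome subunit, rose by 0.89 ± 0.09 and 1.12 ± 0.09. Over all genes the interaction called 0.656%. In this list the interaction called 2 of 28 (7.14%), Gbp9 (-0.73 ± 0.17) and Iigp1 (-1.05 ± 0.24), and 1 without the libraries with atrial transcripts. It called 9 lower with DESeq2 and 3 with limma-voom, and 15 were lower at an unadjusted p below 0.05, so this count too moves with the tool. Irf1 itself was at -0.28 and -0.29 in Mst1Gal3 against MstTg and against Gal3Ko.

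**Figure D4:**
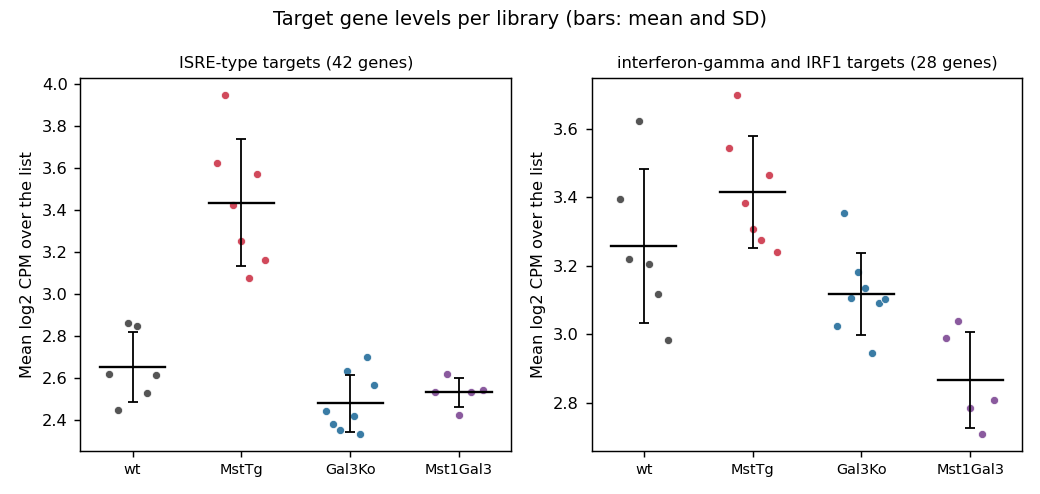
Mean log2 CPM over the genes of 2 target lists in every library (y axis) by group (x axis), with bars for the mean and SD. The ISRE-type list is 3.07 to 3.95 in MstTg and at most 2.86 elsewhere, and the interferon-gamma and IRF1 list is lowest in Mst1Gal3, at 2.71 to 3.04.

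The mean log2 CPM over each of the 2 target lists was also read in every library. For ISRE-type targets MstTg libraries ranged from 3.07 to 3.95 with replicate 2 the highest, and wt from 2.45 to 2.86, Gal3Ko from 2.33 to 2.70 and Mst1Gal3 from 2.42 to 2.62. For interferon-gamma and IRF1 targets wt ranged from 2.98 to 3.62 and MstTg from 3.24 to 3.70, and Mst1Gal3 overlapped with wt and Gal3Ko but not with MstTg. These levels are descriptions without a test.

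Of 9 measured interferon receptor chains and Janus kinases, 3 rose and 4 fell in MstTg over wt, with a median of -0.12, where 55.0% of all genes were called. Il10rb, the shared chain of the interferon-lambda receptor, fell by 0.65 there and by 0.67 in Mst1Gal3 against Gal3Ko, and Jak1, the kinase used by all interferon receptors, fell by 0.33 and 0.37. The chains of the interferon-gamma receptor went opposite ways. Ifngr2, the signalling chain, fell by 0.40 in MstTg over wt and by 0.58 in Mst1Gal3 against Gal3Ko. Ifngr1, the binding chain, rose by 0.67 ± 0.06 and 0.44 ± 0.06, and was the 1 gene of this list called in Mst1Gal3 against MstTg (-0.32 ± 0.06, edgeR adjusted p = 0.0021). The interaction called 0 of 9 by edgeR, DESeq2 or limma-voom, and 3 were lower at an unadjusted p below 0.05. Over all genes 4.89% were called in Mst1Gal3 against MstTg and 0.656% for the interaction.

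Of 24 measured sensors, adaptors and kinases that activate IRF3, IRF5 and IRF7, 11 rose and 2 fell in MstTg over wt, and 7 rose and 4 fell in Mst1Gal3 over Gal3Ko. These are 54.2% and 45.8% of the list, near the 55.0% and 52.5% called over all genes. Tlr4, the lipopolysaccharide receptor, rose by 1.49 ± 0.11 and 1.56 ± 0.10 in these contrasts, and Traf3, the adaptor that links to TBK1, by 1.05 ± 0.07 and 1.09 ± 0.06. Mavs, the adaptor of RNA sensors, fell by 1.01 and 0.93. Ddx58, which encodes the RNA sensor RIG-I, rose by 0.68 ± 0.09 in MstTg over wt. From MstTg to Mst1Gal3, 4 fell and 0 rose: Ifih1 (-0.78 ± 0.09), Ddx58 (-0.71 ± 0.09), Zbp1 (-1.79 ± 0.28) and Dhx58 (-0.95 ± 0.22), all of them sensors of viral nucleic acid or their cofactors, and themselves inducible by interferon. Beside that 0, none was higher at an unadjusted p below 0.05 or with either other tool. The 4 falls from MstTg to Mst1Gal3 are 16.7% of the list, where 2.35% of all genes fell. The interaction called Ddx58 (-0.68 ± 0.13, edgeR adjusted p = 0.0084) and Ifih1 (-0.64 ± 0.13, edgeR adjusted p = 0.013). These are 8.33% of the list, where 0.656% of all genes were called.

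Of 12 negative regulators, 3 rose and 2 fell in MstTg over wt, 41.7% of the list where 55.0% of all genes were called. Otud5 rose by 0.30 there, and Pias1 (-0.18) and Ptpn11 (-0.16) fell. In Mst1Gal3 against MstTg edgeR called 1 of the 12, Usp18. That is 8.33% of the list, where 4.89% of all genes were called. Usp18, the protease that removes ISG15 and blocks the type I receptor, rose by 1.54 ± 0.17 in MstTg over wt, was at -1.48 ± 0.17 in Mst1Gal3 against MstTg and had an interaction of -1.27 ± 0.25 (edgeR adjusted p = 0.012). In Mst1Gal3 against MstTg, DESeq2 and limma-voom also called 1 gene of this list, and 2 were lower at an unadjusted p below 0.05. Of the other IRF and STAT genes, Stat6 rose (0.20 ± 0.05) and Irf4 (-1.43 ± 0.25) and Stat5b (-0.52 ± 0.05) fell in MstTg over wt.

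Irf9 lies on the same chromosome as Lgals3, 8.22 Mb from it (GRCm38 chr14:47367751-47386160), so its neighbours were read in the same comparisons. Within 0.3 Mb of Irf9 there were 25 other genes. In Mst1Gal3 against MstTg 1 of them was called, Sdr39u1 (0.36 ± 0.09), while 7 were higher and 1 lower at an unadjusted p below 0.05, and 3 were called higher without the 6 libraries with atrial transcripts. In Gal3Ko against wt 0 were called by edgeR, DESeq2 or limma-voom, with 2 lower at an unadjusted p below 0.05. Rnf31, which shares exon bases with Irf9, was at -0.04 ± 0.07 in MstTg against wt and -0.10 ± 0.07 in Mst1Gal3 against MstTg, where Irf9 was at 0.70 and -0.80. Psme1 and Psme2, the interferon-gamma-inducible proteasome activator genes on the other side of Rnf31, fell by 0.79 and 0.33 in MstTg against wt and were both at -0.01 in Mst1Gal3 against MstTg. In MstTg against wt 14 of the 25 neighbours were called, 12 of them lower, where 55.0% of all genes were called.

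A wider region around Lgals3 was counted too. Of 275 genes within 20 Mb of Lgals3, 25 (9.09%) were called in Gal3Ko against wt, where 0.354% of all genes were, and 50 (18.2%) in Mst1Gal3 against MstTg, where 4.89% were. The nearest called genes on either side of Irf9 in Gal3Ko against wt were Myh7, the fetal ventricular myosin, 0.609 Mb before it (1.44 ± 0.29), and Trim13 5.99 Mb after it (-1.30 ± 0.19). Irf9 itself was at -0.02 ± 0.10 in that comparison. The other 7 factors lie on other chromosomes.

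**Figure D5:**
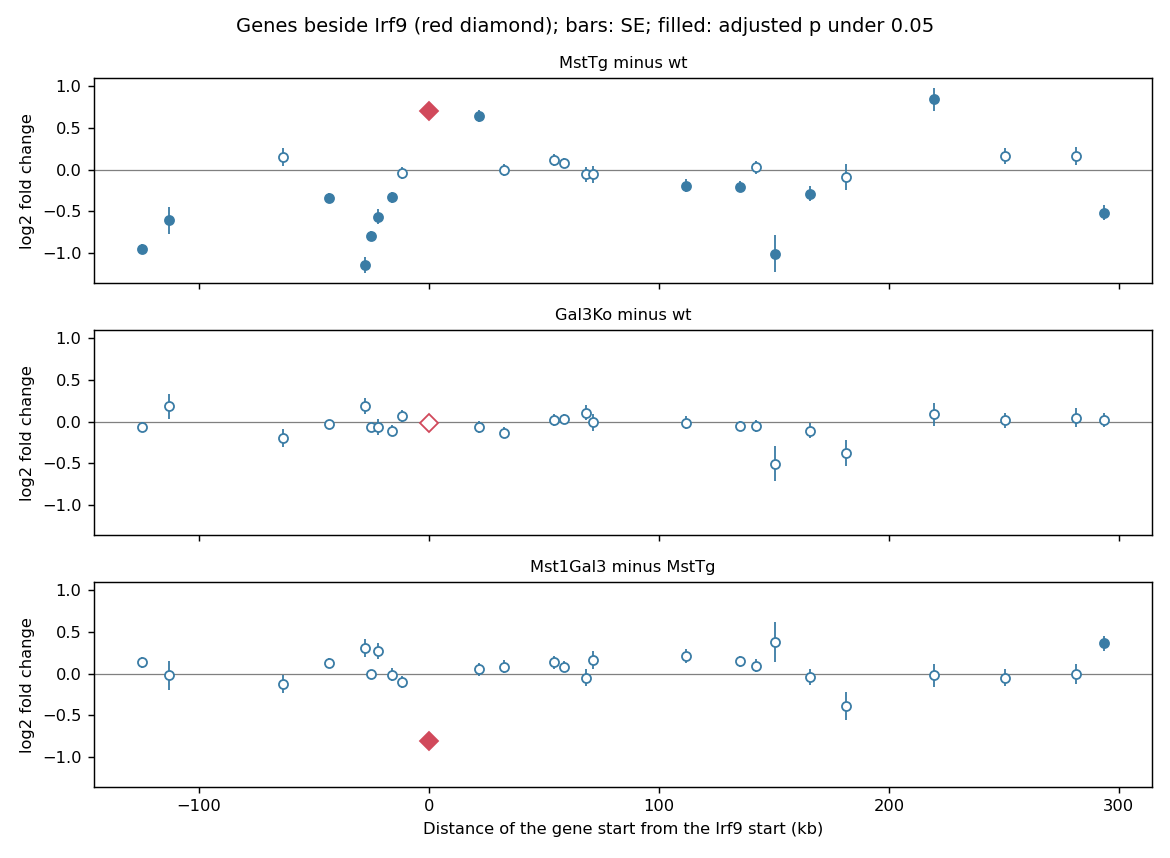
Log2 fold change (y axis, with SE) of Irf9 and of genes within 0.3 Mb of it against the distance of their starts from the Irf9 start (x axis, kb), in 3 comparisons; filled symbols have an adjusted p below 0.05. Irf9, the red diamond, is at 0.70, -0.02 and -0.80, and 1 neighbour is filled in the lowest panel.

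For each factor the genes with the most similar deviations from the group means were sought among the 12022 genes whose mean reached 1 CPM, over the same 26 libraries. For Irf7 they were Dhx58 (Pearson r = 0.868, Spearman rho = 0.930), Oasl2 (0.847, 0.859) and Phf19 (0.833, 0.759). Irf9 had Oasl2 (0.785, 0.802), Irf7 (0.782, 0.809) and Dhx58 (0.741, 0.746), so 2 of its 3 are shared with Irf7. Stat2 had Rnf213 (0.879, 0.797), Adar (0.844, 0.744) and Samd10 (0.827, 0.794). Over the 19 libraries outside MstTg these r were 0.854, 0.773 and 0.670 for the genes of Irf7, 0.702, 0.673 and 0.636 for those of Irf9 and 0.774, 0.727 and 0.782 for those of Stat2. The other factors had other genes: Irf3 had Ggnbp1 (r = 0.875), Irf2 Arhgap31 (0.801), Irf5 Pdxk (0.777), Irf8 Mmp2 (0.679) and Irf1 Cdh13 (0.664). These are the highest of 12022 values for each factor, given as a description.

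Scaling sets the level of the changes with the transgene. Without scaling factors the median of all genes moves from 0.02 to 0.27 in MstTg against wt and from 0.01 to 0.24 in Mst1Gal3 against Gal3Ko. The split of called genes then becomes 7789 higher and 2166 lower in the first, 7374 and 1929 in the second, 16 and 45 in Gal3Ko against wt, and 136 and 558 in Mst1Gal3 against MstTg. Beside that median of 0.27, Irf7 (2.06), Irf5 (1.27), Irf9 (0.94), Stat2 (0.85) and Irf8 (0.71) remained higher in MstTg than in wt, and Irf1 turned from -0.08 to 0.17, below the median. The falls of Irf7 (-2.06), Irf9 (-0.88) and Stat2 (-0.82) from MstTg to Mst1Gal3 remained under both.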

How the data were processed

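RNA of 26 left ventricle samples was measured as rRNA-depleted, directional NEBNext libraries, per the labels' protocols. Per the submitters' processing notes the tools were bcl2fastq 2.19.1.403, STAR and featureCounts, on build GRCm38. No source used here gives the annotation, the strand setting or the handling of reads that map more than once. The authors deposited raw counts as whole numbers without normalization, for 15249 genes, the lowest with a mean of 10 counts. All 26 columns matched a sample title, which also gave the groups.

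Counts were tested with edgeR 4.0.16 in R 4.3.3 (TMM factors, robust quasi-likelihood fit, two-sided, 1 mean per group, all 26 libraries, 22 residual degrees of freedom, common biological coefficient of variation 0.114). P-values were adjusted by Benjamini-Hochberg over 15249 genes with a threshold of 0.05. The interaction is (Mst1Gal3 minus MstTg) minus (Gal3Ko minus wt). CPM use TMM-scaled library sizes, and log2 CPM a prior count of 0.5. Errors on log2 fold changes are SE. Positions and exon lengths come from GENCODE M21 (15195 of 15249 genes found). Totals of 18580405 to 32663735 counts set the precision, and replicate pairs were checked for duplicates (lowest chi-square per degree of freedom 4.91).

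The 8 factors and the gene lists were chosen with earlier results of these data known. All 8 factors are described. From each pathway list up to 4 called genes with the smallest p and a mean of at least 1 CPM are named per comparison, with the genes within 0.3 Mb of Irf9 and the 3 genes most like each factor. The scripts were tested on simulated data. Alternatives were DESeq2 1.42.0, limma-voom (limma 3.58.1), DESeq2-type (RLE) size factors, library totals, a filter at a mean of 1 CPM, fits of the groups compared alone, a replicate block and leaving out each library. Leaving out 6 libraries with atrial transcripts was added after the data were seen. One gene of the list of other IRF and STAT genes is not reported here.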

Additional observations from a re-analysis of the deposited data

Results flagged for a closer look

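Irf7 in wt replicate 4 was 9.39 CPM, far from the other wt libraries, which lay at 5.30 to 6.05 CPM. Of 32 groups of values tested for such a gap, 8 factors in 4 groups, this was the 1 found, and chance gives about 5% of groups. Without this library Irf7 in Gal3Ko against wt turned from -0.12 to 0.02 on the log2 scale, neither called.

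The step between libraries with and without the knockout label differed with the transgene for 3 factors, by edgeR's test of the interaction. The interaction was -1.87 for Irf7, -0.78 for Irf9 and -0.67 for Stat2 on the log2 scale. Each of the 5 Mst1Gal3 libraries was below each of the 7 MstTg libraries for these 3 genes, while the Gal3Ko and wt libraries overlapped. The share of all genes that separate in this way was not counted. The Stat2 call did not hold with any of 10 libraries left out in turn, without the 6 libraries with atrial transcripts or without scaling factors.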

How the results depend on the processing

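The counts of factors called were 5 in MstTg against wt under every alternative but library totals (6), 0 in Gal3Ko against wt under all, 3 or 4 in Mst1Gal3 against MstTg, 3 or 4 in Mst1Gal3 against Gal3Ko and 2 or 3 for the interaction. Over the 26 fits that leave out 1 library, all genes called ranged from 469 to 1040 in Mst1Gal3 against MstTg (1040 without Mst1Gal3 replicate 1) and from 52 to 189 for the interaction (52 to 65 without MstTg 1, Gal3Ko 7 and 8, or Mst1Gal3 1, 4 and 5, and 189 without MstTg 5), and pathway genes called for the interaction from 9 to 33 (9 to 13 without wt 2, MstTg 1, Gal3Ko 7, or Mst1Gal3 4 and 5, and 33 without MstTg 5). With DESeq2 the interaction called 193 genes against 100, 34 of them in the pathway against 21, and Gal3Ko against wt 89 against 54. The groups alone gave 33 for Gal3Ko against wt. Without the 6 libraries with atrial transcripts that count was also 33 and 13 pathway genes were called for the interaction.

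Small differences changed sign, none of them called. MstTg against wt was 0.17 for Irf1 with library totals, and for Irf3 -0.0015 with DESeq2, -0.0016 with RLE factors, -0.027 with the groups alone and -0.053 to 0.090 with 1 library left out. Gal3Ko against wt was -0.033 (Irf2) and -0.044 (Irf3) with library totals, and -0.021 (Irf2) and 0.0022 (Irf8) without the atrial ones. With 1 library left out it was -0.0045 to 0.056 for Irf2, -0.046 to 0.097 for Irf3, -0.11 to 0.015 for Irf5, -0.22 to 0.023 for Irf7, -0.098 to 0.0033 for Irf8 and -0.071 to 0.018 for Irf9. Mst1Gal3 against Gal3Ko was 0.18 (Irf7), 0.15 (Irf9) and 0.16 (Stat2) with library totals, 0.050 (Irf7) and 0.012 (Irf9) without the atrial ones, and -0.034 to 0.057 (Irf2) and -0.10 to 0.044 (Irf7) with 1 library left out. Irf8 was -0.13 to 0.0022 in Mst1Gal3 against MstTg and -0.088 to 0.043 for the interaction. Library totals added calls for Irf2 (0.35 in MstTg against wt, 0.25 in Mst1Gal3 against Gal3Ko) and Irf3 (0.35 in the latter), where the median of all genes was 0.27 and 0.24. The cause of these changes was not tested. Depth limits Irf5, Irf7 and Irf8 most, with 59, 73 and 78 counts in their lowest libraries. The interaction needs all 4 groups, so no fit of the groups alone was made for it.

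Whether the replicate numbers pair the libraries was not settled. Deviations of same-numbered libraries had a median correlation of 0.02 over 34 pairs (-0.34 to 0.28), against -0.0045 over 217 other pairs (-0.37 to 0.38). Of 25 libraries 6 were closest to their own number, and the number due to chance was not worked out. With the replicate block all genes called for the interaction were 51, and the calls of factors were 5, 0, 4, 4 and 2 in the order above. Under the block Stat2 had an interaction of -0.64 (adjusted p 0.174), Irf3 was called in Mst1Gal3 against Gal3Ko (0.22), and uncalled values changed sign for Irf3 in MstTg against wt (-0.0051), for Irf2 (-0.0037), Irf3 (-0.044) and Irf5 (0.0046) in Gal3Ko against wt and for the interaction of Irf8 (0.012). It changed no other call of the factors.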
